A study of Homo sapiens with 18 samples.

Results

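The EGR, NR4A and IER genes and SRF, 10 genes in all, were followed through 18 RNA-seq libraries made from NCI-H1299, a p53-deficient line of human lung cancer. They were found as the rows of the count table whose Ensembl identifiers belong to the symbols EGR1, EGR2, EGR3, NR4A1, NR4A2, NR4A3, IER2, IER3, IER5 and SRF, 10 of 63677 rows. A gene was tested if 10 or more libraries held over 5 counts of it, which was the case for 8 of the 10 genes and for 15576 of the 63677 rows. EGR2 and EGR3 did not reach this minimum. The list was chosen by what these genes do, with their log2 fold changes in each TBX against the controls in view, so values in those contrasts are a description and carry no test.

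Each of 6 groups had 3 libraries. Cells were transfected with Lipofectamine, a lipid reagent, and the plasmids encoded Flag-tagged human TBX2 or TBX4 in a pORF vector, or HA-tagged human TBX3 or mouse Tbx5 in a pCGN vector. The EV group received an empty vector, and the labels do not say whether it was pORF or pCGN. They give nothing more for the Ctl group. Vector and tag differ between TBX2 or TBX4 and TBX3 or Tbx5. In differences between these groups, their part cannot be told apart from that of the T-box gene. All groups came from 1 cell line grown in DMEM with low glucose and serum, at passage 12 to 14. Transient transfection reaches only part of the cells, and the time between transfection and RNA collection is not given in the sources used here. The label of TBX4 replicate c names TBX4 by its number and TBX5 by its last word, and that library held 85197 counts of TBX4. Nothing in the labels says whether the 3 libraries of a group came from separate cultures, so the p-values measure the spread between these libraries, which may be technical.

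Immediate-early genes are transcribed within minutes of a growth factor, serum or stress signal, without prior protein synthesis. Signals that pass through ERK, MRTF and CREB act on serum response factor (SRF) bound to CArG boxes and on cyclic AMP response elements (CREs) in their promoters. EGR proteins are zinc-finger transcription factors, NR4A proteins are orphan nuclear receptors, and the IER genes encode short-lived proteins, of which IER2 and IER5 are related to each other.

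The stretch of 250 bases before the RefSeq start is shown for EGR1 and NR4A3, which passed the threshold with every TBX against the 6 controls, for IER2, which passed it with TBX3, and for IER5, which passed it with none. Capitals mark CArG boxes and CRE half-sites (TGACG or its reverse complement CGTCA). The strand is plus for all 4 genes, and in GRCh37 the stretches lie at chr5:137800918-137801167 (EGR1), chr9:102583917-102584166 (NR4A3), chr19:13260975-13261224 (IER2) and chr1:181057586-181057835 (IER5).
EGR1: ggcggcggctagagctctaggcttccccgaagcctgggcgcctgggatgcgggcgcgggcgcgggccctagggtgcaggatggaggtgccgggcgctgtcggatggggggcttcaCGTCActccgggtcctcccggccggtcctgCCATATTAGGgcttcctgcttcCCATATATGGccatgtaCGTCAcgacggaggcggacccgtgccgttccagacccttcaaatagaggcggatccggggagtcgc
NR4A3: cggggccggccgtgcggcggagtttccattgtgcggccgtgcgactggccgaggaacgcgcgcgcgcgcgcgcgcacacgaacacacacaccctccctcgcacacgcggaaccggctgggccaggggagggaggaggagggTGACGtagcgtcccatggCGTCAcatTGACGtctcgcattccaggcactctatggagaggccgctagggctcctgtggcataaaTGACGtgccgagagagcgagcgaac
IER2: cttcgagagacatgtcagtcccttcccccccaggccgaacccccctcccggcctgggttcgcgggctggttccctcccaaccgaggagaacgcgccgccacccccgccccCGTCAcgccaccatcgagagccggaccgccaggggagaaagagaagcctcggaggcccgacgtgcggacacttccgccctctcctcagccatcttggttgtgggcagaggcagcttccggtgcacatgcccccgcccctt
IER5: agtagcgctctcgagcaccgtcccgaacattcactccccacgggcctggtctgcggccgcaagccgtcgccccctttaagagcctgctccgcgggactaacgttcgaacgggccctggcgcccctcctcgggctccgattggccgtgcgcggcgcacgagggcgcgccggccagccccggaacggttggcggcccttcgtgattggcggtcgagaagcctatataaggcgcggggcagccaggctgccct

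In these windows the EGR1 sequence held 2 CArG boxes, whose first bases lay at -105 and -83 from the start, and 2 CRE half-sites. NR4A3 had 4 CRE half-sites and no CArG box, IER2 had 1 CRE half-site, and IER5 had neither. A window with 50 further bases after the start, from the RefSeq table (GRCh38.p14), was searched for 7 of the 10 genes. EGR3, NR4A2 and IER3 were not searched. Besides EGR1, 1 window of EGR2 held 1 CArG box and 2 CRE half-sites, and 1 window of SRF held 2 and 1. NR4A1, which like SRF passed the threshold with TBX3, had neither motif in its windows. The 4 genes shown were picked by their calls, and a relation of motifs to calls was not tested. Both strands were searched, and no matches overlapped in the windows of these genes. Of 35116 windows of the same length, 1.29% held a CArG box and 24.6% a CRE half-site. The T-box half-site TCACACC occurs in 3.45% of these windows. Among the 7 genes searched it was found for EGR2 alone, in a window where it began 25 bases after the start. These are matches of letters, and binding was not measured here.

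Library totals ran from 7365221 to 11743179 counts. A level of 3 counts, taken as the floor, equals 0.191 to 0.595 CPM after TMM scaling (CPM, counts scaled to one common library size, here corrected for composition). The floor and the counting intervals cover counting error only. In every TBX group, the human gene named by the plasmid was the encoded T-box gene with the highest mean level, from 200.6 CPM for TBX5, where the plasmid is the mouse gene, to 21905 CPM for TBX3. Markers of lung epithelium (NKX2-1, SFTPB, SFTPC, NAPSA) were nearly absent, with a summed level of 0.343 to 1.38 CPM per library. The summed level of 5 general epithelial markers, mainly KRT8 and KRT18 with CDH1, EPCAM and KRT19 at 3 counts or fewer, was 96.5 to 114 CPM in the controls, 66.4 to 74.5 CPM with TBX2, 77.1 to 85.0 CPM with TBX3, 84.2 to 99.2 CPM with TBX4 and 102 to 127 CPM with TBX5. The sum of 3 mesenchymal markers (VIM, CDH2, FN1) was 925 to 1038 CPM in the controls, 764 to 822 CPM for TBX2, 814 to 848 CPM for TBX3, 863 to 933 CPM for TBX4 and 874 to 972 CPM for TBX5. Both sums were thus below all controls with TBX2 and TBX3, the groups with the highest EGR1 levels, and their part in the members' levels was not tested. The mesenchymal sum was mainly VIM, at a mean of 897 CPM in the controls. FN1 went the other way, with means of 37.4 CPM in the controls, 49.1 CPM with TBX2 and 40.6 CPM with TBX3. CDH2 was at 29.3, 24.6 and 29.1 CPM in the same order. One Ensembl gene, ENSG00000266658, took 10.7% to 53.5% of a library's counts. In bulk libraries, a change in the number of cells that express a gene and a change in RNA per cell cannot be told apart.

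Per kilobase of exon, SRF had the highest level in the controls, with 10.5 ± 0.819 CPM per kb (SD, n = 6). IER3 followed with 7.37 ± 1.48, IER2 with 3.92 ± 0.323, EGR1 with 2.52 ± 1.03 and IER5 with 1.63 ± 0.201 CPM per kb. The NR4A genes lay lower, at 0.382 ± 0.0939 for NR4A1, 0.264 ± 0.0750 for NR4A2 and 0.0788 ± 0.0451 CPM per kb for NR4A3. In the TBX2 libraries, EGR1 led this order with 26.9 ± 5.82 CPM per kb (SD, n = 3).

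**Figure D1:**
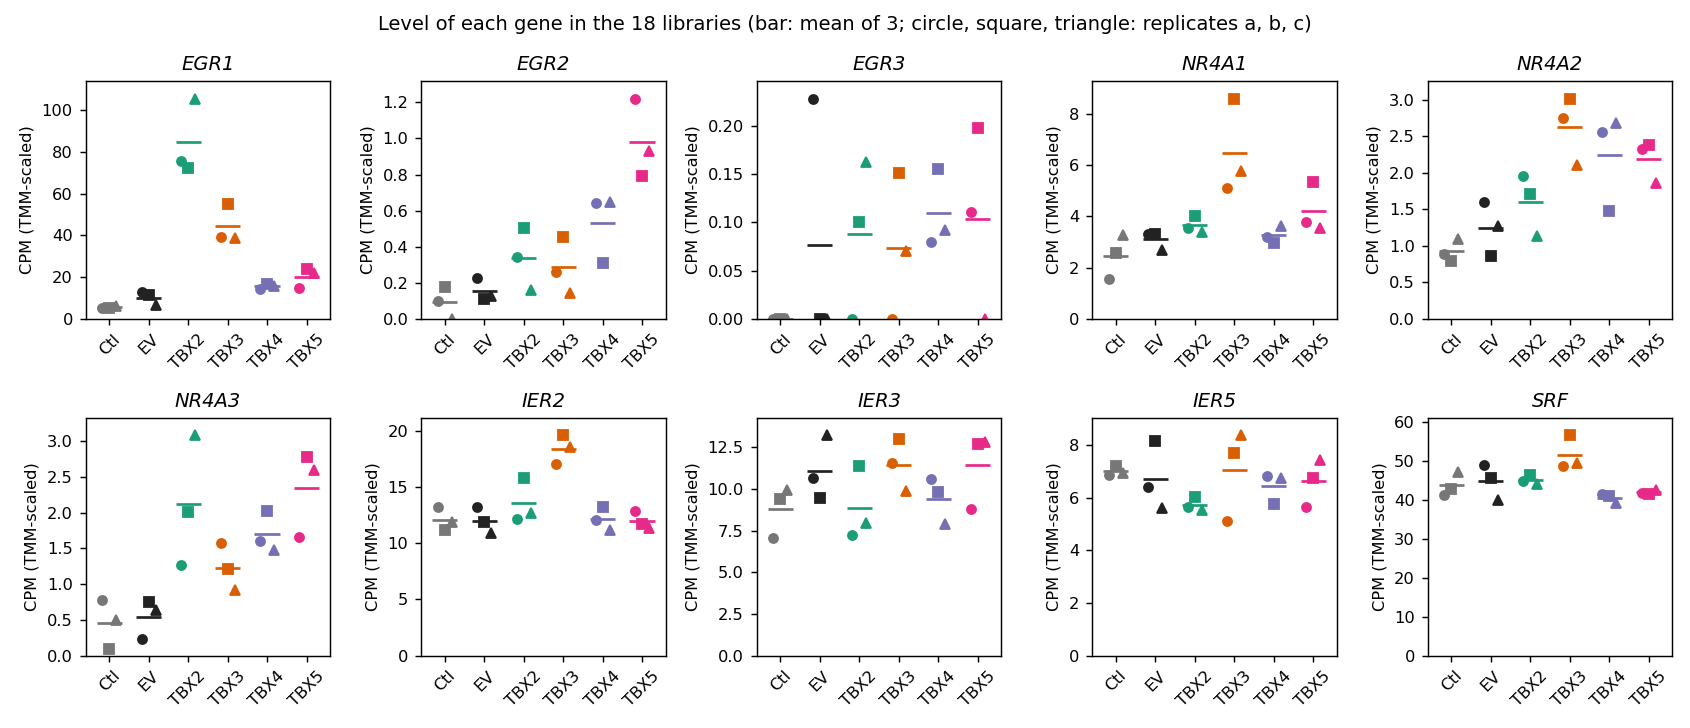
Level of each of the 10 genes (CPM, TMM-scaled, linear axis from 0) in the 18 libraries by group, with a bar at the mean of 3 libraries and a symbol for each replicate letter. EGR1 is highest in the 3 TBX2 libraries, NR4A1, IER2 and SRF have their highest mean with TBX3, and EGR3 stays at 2 counts or fewer per library.

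EGR1, which encodes a zinc-finger activator of growth and apoptosis genes (chr5:137801168-137804992), was at 5.39, 5.15 and 6.35 CPM in the Ctl libraries and at 12.7, 11.3 and 6.51 CPM in the EV libraries. It reached 75.7, 72.3 and 106 CPM with TBX2 and 39.4, 55.2 and 38.5 CPM with TBX3. The TBX4 libraries held 14.3, 16.5 and 15.8 CPM, and the TBX5 libraries 14.9, 24.0 and 21.8 CPM. Each of the 12 TBX libraries was above all 6 controls, and the groups ordered as TBX2, TBX3, TBX5, TBX4, EV and Ctl. Neighbours in this order did not overlap, except TBX5 and TBX4. Against the 6 controls, EGR1 was 10.9-fold higher with TBX2 (log2 fold change 3.45, SE 0.16), 5.70-fold with TBX3 (2.51, SE 0.17), 2.02-fold with TBX4 (1.02, SE 0.17) and 2.55-fold with TBX5 (1.35, SE 0.21). Since EV lay above Ctl, the choice of control moved these values. Against EV alone the log2 fold changes of EGR1 were 3.12, 2.18, 0.69 and 1.01 for TBX2, TBX3, TBX4 and TBX5, and against Ctl alone they were 3.90, 2.95, 1.46 and 1.80.

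NR4A3, which encodes the nuclear receptor NOR1 (chr9:102584137-102629173), was the lowest of the tested members per kilobase in the controls. It was at 0.784, 0.0888 and 0.496 CPM in the Ctl libraries and at 0.229, 0.751 and 0.638 CPM in the EV libraries. The level was 1.26, 2.01 and 3.08 CPM with TBX2 and 1.57, 1.21 and 0.914 CPM with TBX3. With TBX4 it was 1.60, 2.02 and 1.48 CPM, and with TBX5 1.66, 2.78 and 2.61 CPM. All 12 TBX libraries lay above the 6 controls, while the TBX groups overlapped between neighbours. The log2 fold changes against the controls were 1.98 (SE 0.38), 1.19 (SE 0.40), 1.74 (SE 0.33) and 2.12 (SE 0.38) for TBX2, TBX3, TBX4 and TBX5. These rest on 33 counts summed over the 6 controls, and only 3 of the controls had more than 5 counts, so NR4A3 passed the minimum through the libraries where it is high. With EV as the only control, it did not pass the threshold with TBX3 (1.03).

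NR4A2, which encodes the nuclear receptor NURR1 (chr2:157180949-157198860), was at 0.882, 0.799 and 1.09 CPM with Ctl and at 1.60, 0.859 and 1.28 CPM with EV. Levels of 2.75, 3.02 and 2.11 CPM were found with TBX3, of 2.56, 1.48 and 2.68 CPM with TBX4, and of 2.33, 2.38 and 1.86 CPM with TBX5. All TBX3 and TBX5 libraries exceeded the controls, and TBX4 replicate b fell within them. The TBX2 libraries, at 1.95, 1.71 and 1.14 CPM, also overlapped with the controls. NR4A2 was 2.31-fold, 2.03-fold and 2.02-fold higher with TBX3, TBX4 and TBX5 (log2 fold change 1.21, SE 0.25, then 1.02, SE 0.26, and 1.01, SE 0.28), and its log2 fold change was 0.59 (SE 0.29) with TBX2. The TBX2 value passed the threshold when EV replicate a (0.71) or TBX2 replicate c (0.75) was left out. With EV as the only control, NR4A2 was no longer called with TBX4 or TBX5 (0.82 and 0.82). Without TBX5 replicate a, its call with TBX5 was lost too (0.95).

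NR4A1, which encodes the nuclear receptor NUR77 (chr12:52416616-52453291), was at 1.57, 2.57 and 3.27 CPM with Ctl and at 3.31, 3.33 and 2.68 CPM with EV. It reached 5.11, 8.60 and 5.76 CPM with TBX3, where its log2 fold change was 1.19 (SE 0.19). The libraries of TBX2 (3.56, 4.02 and 3.41 CPM) and TBX5 (3.77, 5.36 and 3.54 CPM) also lay above all 6 controls, by smaller steps that did not pass the threshold (0.42, SE 0.21, and 0.58, SE 0.23). TBX4, at 3.20, 2.96 and 3.61 CPM, overlapped with them. An antisense gene, NR4A1AS, covers 10.3% of the exon bases of NR4A1. Counting without strand drops reads from such an overlap if its annotation holds both genes, and otherwise gives them to NR4A1.

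IER2, which encodes a nuclear protein of early growth responses (chr19:13261225-13265725), was at 17.0, 19.6 and 18.6 CPM in the TBX3 libraries. The 6 controls held 10.9 to 13.3 CPM, TBX4 11.2 to 13.2 CPM and TBX5 11.4 to 12.9 CPM. The TBX3 libraries did not overlap with those of any other group. IER2 was 1.53-fold higher with TBX3 (log2 fold change 0.62, SE 0.09), and its log2 fold change was 0.19 (SE 0.11), 0.02 (SE 0.10) and 0.01 (SE 0.11) with TBX2, TBX4 and TBX5. Antisense genes of the annotation used here cover 52.2% of its exon bases, where the same holds.

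SRF itself (chr6:43139007-43149244) was at 48.7, 56.6 and 49.4 CPM with TBX3 and at 40.1 to 48.9 CPM in the controls. Its libraries overlapped with the controls in every TBX group. The log2 fold change was 0.22 (SE 0.07) with TBX3, which passed the threshold. It was 0.03, -0.13 and -0.08 with TBX2, TBX4 and TBX5, which did not pass. Against EV alone, the TBX3 value (0.20) no longer passed the threshold. IER3, which encodes a regulator of cell survival (chr6:30710976-30712325), had log2 fold changes of -0.16 to 0.14, and IER5, which encodes a regulator of protein phosphatase PP2A (chr1:181057836-181062036), of -0.24 to 0.10. Neither was called with any TBX. IER3 was at 7.06 to 13.2 CPM and IER5 at 5.62 to 8.16 CPM in the controls, and their TBX libraries overlapped with these ranges. Antisense genes cover 38.9% of the exon bases of IER3.

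EGR2 and EGR3 encode zinc-finger factors related to EGR1. EGR2 (chr10:64571756-64578927) had at most 2 counts in a control library. Its counts were 3, 5 and 1 with TBX2, 2, 3 and 2 with TBX3, 8, 4 and 7 with TBX4, and 11, 4 and 5 with TBX5. All TBX4 and TBX5 libraries were above 3 counts, and all 6 controls were under it. From summed counts, with 8 over the 6 controls, the ratio to the controls was 2.96 (exact 95% interval 1.01 to 8.82) with TBX2 and 2.01 (0.619 to 6.33) with TBX3. It was 4.29 (1.79 to 11.3) with TBX4 and 8.40 (3.55 to 22.1) with TBX5. EGR2 thus had its highest mean where EGR1 was far under its TBX2 level. EGR3 (chr8:22545172-22550993) had 0 to 2 counts in every library, and no difference was detectable at this depth.

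**Figure D2:**
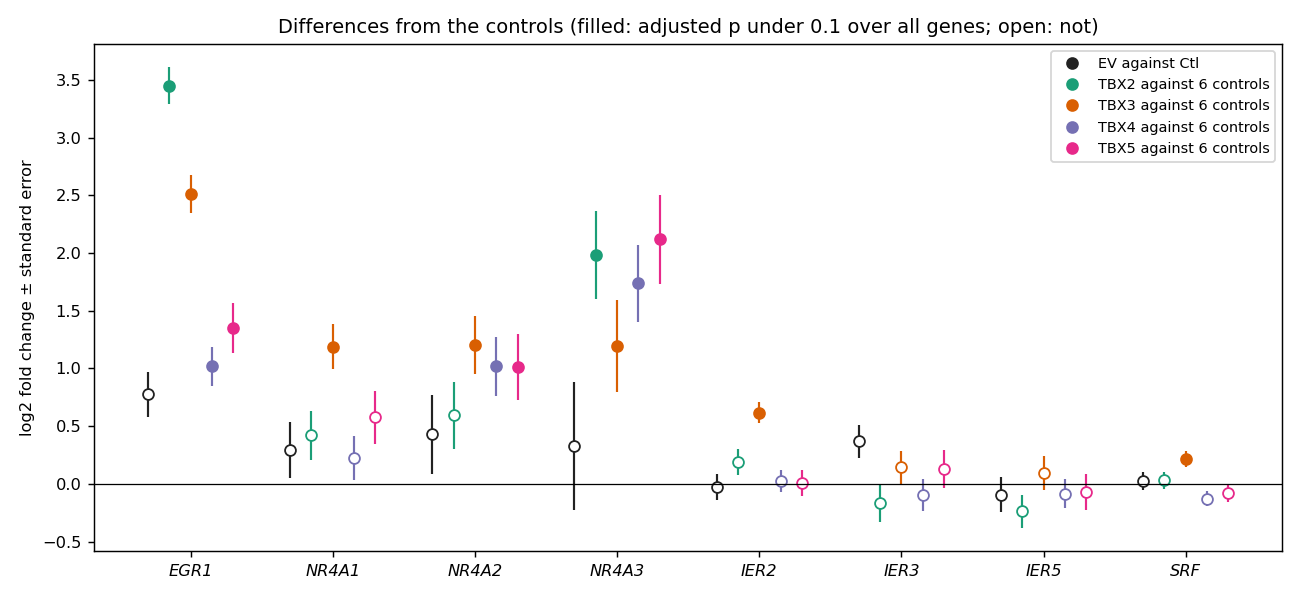
Log2 fold change with its standard error for the 8 tested genes, EV against Ctl and each TBX against the 6 controls; filled points have an adjusted p under 0.1 over all genes. EGR1 and NR4A3 are filled with all 4 TBXs, NR4A1, IER2 and SRF are filled with TBX3, and no point is filled for EV against Ctl.

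At an adjusted p under 0.1, members called against the 6 controls numbered 2 of 8 for TBX2, 6 for TBX3 and 3 each for TBX4 and TBX5, all of them higher. Over all 15576 genes, 17.0%, 8.47%, 6.97% and 6.55% were called higher in the same order, and 15.6%, 6.40%, 6.07% and 6.12% lower. Since the list was made with these contrasts known, nothing is read from the shares. TBX libraries above all 6 controls were seen for 3, 5, 2 and 4 of the 8 members, next to 12.9%, 8.38%, 6.84% and 7.48% of all genes. The median log2 fold change of the 8 members was 0.31, 0.90, 0.12 and 0.35, and that of all tested genes lay between -0.01 and 0. Scaled to library totals, 2 members passed with TBX3, EGR1 and NR4A1. Over all 15576 genes, that scaling left 35 called higher and 0 lower with TBX3, in place of 1319 and 997. The TBX3 count also rested in part on 1 library. Without TBX3 replicate b it was 4, since NR4A3 (1.18) and SRF (0.15) were no longer called. Without TBX3 replicate a, NR4A3 was no longer called (0.99), and without EV replicate c, SRF was not (0.18).

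The EV libraries were compared with Ctl to see how the 2 kinds of control differed. Whether the Ctl cells received the reagent is not given in the sources used here, so vector and reagent cannot be told apart. Of the 8 members 0 were called (edgeR's quasi-likelihood test, Benjamini-Hochberg adjusted p under 0.1), next to 0.385% of all genes. An unadjusted p under 0.05 in edgeR's test was found for 2 members, EGR1 and IER3, next to 1432 of all 15576 genes. DESeq2 called 0 members as well. EGR1 was higher in every EV library than in any Ctl library, as were 7.68% of all genes. Its log2 fold change was 0.78 (SE 0.19, edgeR's adjusted p = 0.139). This value depended on EV replicate c, whose 6.51 CPM was next to the 6.35 CPM of Ctl replicate c. Without that library the log2 fold change was 1.09 (edgeR's adjusted p = 0.000697), and without Ctl replicate c it was 0.86 (edgeR's adjusted p = 0.0709). The other members had log2 fold changes between -0.09 (IER5) and 0.43 (NR4A2, SE 0.34).

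EV replicate c also had a low share of ENSG00000266658, 12.4% against 32.7% and 34.7% in the other EV libraries. In 5 of the 6 groups, the library with the lowest share of this gene had the lowest EGR1 level, and in 4 of the 6 groups the library with the highest share had the highest EGR1 level. For the other tested members these numbers were 1 to 4 and 1 to 5. With the log2 share as a covariate, chosen after the data were seen, EGR1 differed between EV and Ctl by 1.12 (edgeR's adjusted p = 0.000386), and the members called against the controls were 2, 6, 2 and 3 for TBX2, TBX3, TBX4 and TBX5. Over all genes, the calls with this covariate were 2665 higher and 2444 lower with TBX2, and 1530 and 1397 with TBX3. With TBX4 they were 465 and 335, in place of 1086 and 945, and with TBX5 968 and 1004. The part of the ENSG00000266658 share in the EGR1 levels was not tested further.

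**Figure D3:**
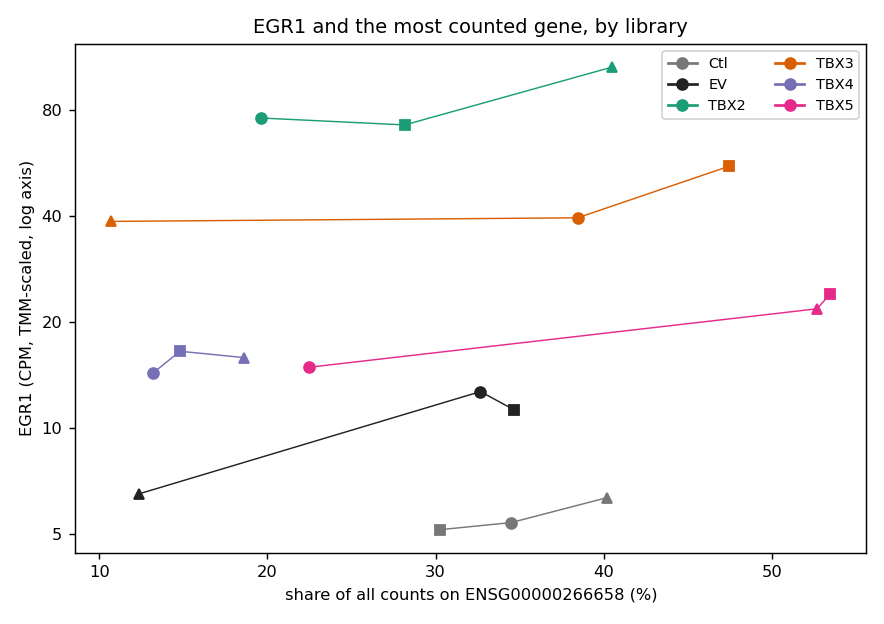
EGR1 level (CPM, log axis) against the share of a library's counts on ENSG00000266658 (percent), with the 3 libraries of a group joined by a line and a symbol for each replicate letter. The TBX2 and TBX3 libraries lie above 38 CPM at shares from 10.7% to 47.4%, and in every group but TBX2 the leftmost library is the lowest.

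Pairs of TBX groups were then compared in 1 joint fit of the 18 libraries. A pair difference is made of values in view when the list was made, so these differences too are a description and carry no test. Of 42 combinations of 7 members and 6 pairs, EGR1 left out, 7 passed an adjusted p of 0.1, and each had TBX3 on the higher side. Over all genes, the share called in a pair ran from 0.539% (TBX4 against TBX5) to 15.5% (TBX2 against TBX3). Nothing is read from the count. When counts were scaled to library totals instead, 0 of the 7 passed the threshold. That scaling also cut the calls over all genes. Between TBX2 and TBX3, 154 genes were called higher and 10 lower, in place of 1248 and 1169. Between TBX3 and TBX4 the numbers were 10 and 100, in place of 927 and 626. Between TBX3 and TBX5 they were 18 and 16, in place of 669 and 485. NR4A1 was higher with TBX3 than with TBX4 by 0.96 on the log2 scale (SE 0.20) and lower with TBX2 than with TBX3 (-0.77, SE 0.21). Its difference between TBX3 and TBX5 was 0.61 (95% interval 0.17 to 1.05), with overlapping libraries, and passed the threshold without TBX3 replicate a (0.72) or TBX5 replicate b (0.77).

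IER2 was higher with TBX3 than with TBX4 (0.59, SE 0.11) and TBX5 (0.60, SE 0.12), and lower with TBX2 than with TBX3 (-0.43, SE 0.11). In all 3 pairs the libraries did not overlap, as for 24.6%, 20.9% and 26.1% of all genes in that order. SRF was higher with TBX3 than with TBX4 (0.34, SE 0.08) and TBX5 (0.29, SE 0.08), while its difference between TBX2 and TBX3 was -0.18 (95% interval -0.34 to -0.03). Under library totals the SRF differences of TBX3 were -0.0075 from TBX4 and 0.51 from TBX5, and those of IER2 were 0.25 and 0.83. Without TBX3 replicate b, which had the highest NR4A1 and SRF levels of all libraries, the NR4A1 difference between TBX2 and TBX3 was -0.57 and the SRF difference between TBX3 and TBX5 was 0.23, and neither passed the threshold.

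NR4A2, NR4A3, IER3 and IER5 were not called in any of the 6 pairs. With 1 library left out, a call between TBX2 and TBX3 appeared for NR4A3 (without TBX2 replicate a, 1.06), IER3 (without TBX2 replicate b, -0.56) and IER5 (without TBX3 replicate a, -0.50). For NR4A3 the widest difference was -0.93 between TBX3 and TBX5 (95% interval -1.70 to -0.16), and no library of TBX3 reached those of TBX5. For NR4A2, TBX4 and TBX5 differed by 0.01 (95% interval -0.55 to 0.56), which leaves room for a difference of nearly 0.6 either way. EGR1 had log2 differences of 0.94 between TBX2 and TBX3, 1.49 between TBX3 and TBX4, 1.16 between TBX3 and TBX5 and -0.33 between TBX4 and TBX5.

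Counting EGR1, members called between TBX2 and TBX3 were 3 of 8 (all genes, 15.5%), and 1 of 8 between TBX2 and TBX4 (12.3%) and between TBX2 and TBX5 (12.1%). The count was 4 between TBX3 and TBX4 (9.97%), 3 between TBX3 and TBX5 (7.41%) and 0 between TBX4 and TBX5 (0.539%), and nothing is read from these shares. In that last pair, 0 members had an unadjusted p under 0.05 in edgeR's test, next to 1262 of all 15576 genes. DESeq2 called 0 members there.

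**Figure D4:**
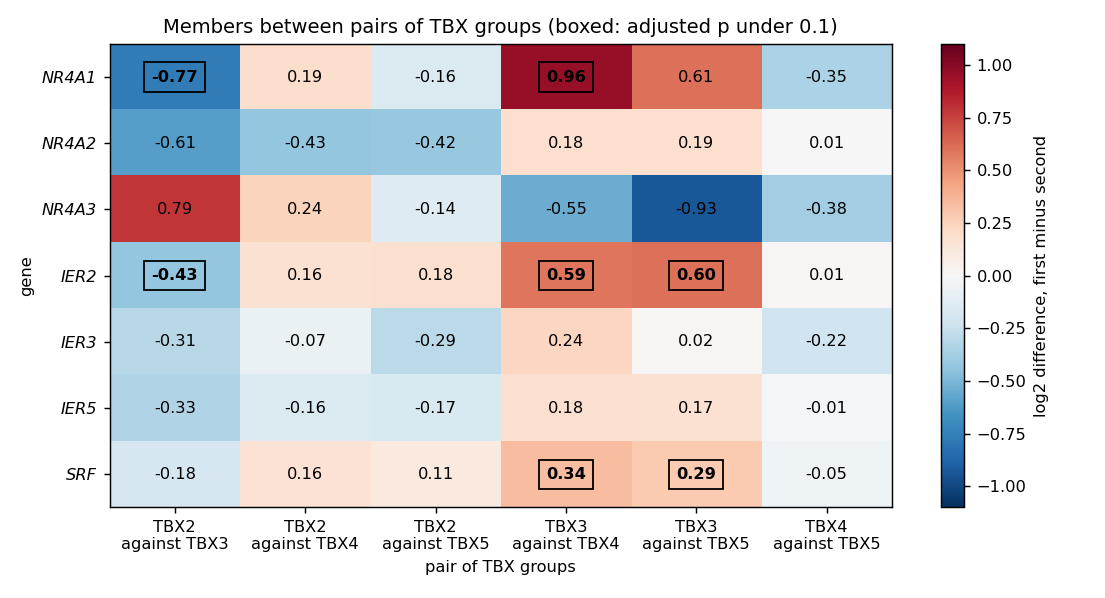
Log2 difference (first group minus second) of the 7 tested members other than EGR1 in the 6 pairs of TBX groups, with a box where edgeR's adjusted p was under 0.1. The 7 boxed values are those of NR4A1, IER2 and SRF in pairs with TBX3.

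Across the 18 libraries, levels of the members moved together to different degrees. The Pearson correlation of log2 CPM averaged 0.30 over all pairs of tested members. NR4A1 had the highest mean with the others, 0.52, and IER5 the lowest, 0.0024. These values include differences between groups. As deviations from group means, some pairs changed sign, such as NR4A2 and NR4A3 (0.48 over the libraries, -0.41 within groups). Others kept it, such as NR4A1 and SRF (0.66 and 0.65). The genes whose log2 CPM was most like that of EGR1 were CREBRF (r = 0.96), the stress factor DDIT3 (r = 0.96), the histone demethylase KDM7A (r = 0.96), the amino acid transporter SLC43A2 (r = 0.96) and the stress-induced SESN2 (r = 0.95). DDIT3, for example, was at 9.53 ± 3.42 CPM over the 6 controls (SD, n = 6). TBX2 libraries held 38.2 ± 6.07, TBX3 29.3 ± 4.47, TBX4 14.7 ± 0.142 and TBX5 14.7 ± 2.28 CPM (SD, n = 3 each). These correlations are descriptions over 18 libraries that share 6 groups.

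Related genes were taken from lists made with earlier results of these data known, and their counts are descriptions next to the shares of all genes given above. Of 18 other immediate-early transcription factors, 10 were called higher and 4 lower with TBX2, 12 and 0 with TBX3, 6 and 2 with TBX4, and 8 and 3 with TBX5. FOSB, a partner of JUN in AP-1, was at 0.840 ± 0.464 CPM in the controls (SD, n = 6) and at 9.69 ± 0.568, 3.83 ± 0.802, 8.61 ± 0.634 and 6.39 ± 1.61 CPM with TBX2, TBX3, TBX4 and TBX5 (SD, n = 3 each). Its log2 fold change was lowest with TBX3 (2.22, SE 0.28) and at 2.84 to 3.51 with the others. FOS rose with all 4 TBXs, by 1.83 (SE 0.20) with TBX3 and by 1.04 to 1.40 with the others. JUND fell with TBX2, TBX4 and TBX5 (-0.49, -0.59 and -0.77) and was at -0.08 (SE 0.09) with TBX3, and FOSL1 fell with TBX2, TBX4 and TBX5 (-0.30, -0.26 and -0.27).

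Of 25 immediate-early genes that encode no transcription factor, 19 were tested. With TBX2, TBX3, TBX4 and TBX5, 6, 7, 3 and 4 of them were called higher and 2 lower in each contrast. TRIB1, a pseudokinase, rose with TBX5 from 7.70 ± 0.992 CPM (SD, n = 6) to 14.5 ± 2.01 CPM (SD, n = 3), a log2 fold change of 0.89 (SE 0.13), and with TBX2 and TBX4 by 0.46 and 0.42. THBS1, which encodes thrombospondin, fell with all 4 TBXs, by 0.30, 0.27, 0.58 and 0.72 on the log2 scale. BTG2, an antiproliferative gene, had log2 fold changes of 0.56 to 0.76 at about 1 CPM, and IER5L of -0.59 to 0.00, none of them called.

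The cofactors of SRF and the ERK and CREB routes, 17 genes tested, had 2 calls higher and 3 lower with TBX2 (11.8% and 17.6%, near the shares over all genes), 3 and 0 with TBX3, 0 and 1 with TBX4, and 0 and 1 with TBX5. BRAF rose with TBX2 (0.29, SE 0.07) and TBX3 (0.27, SE 0.06), and CRTC2, a coactivator of CREB, with TBX2 (0.30, SE 0.09) and TBX3 (0.46, SE 0.11). RPS6KA1, a kinase under ERK, fell with TBX2 (-0.32) and TBX5 (-0.33), and MAPK3 had log2 fold changes of -0.38 to -0.05 without a call. The cytoskeletal targets of SRF had more calls lower than higher with TBX2 and TBX3. Of 12 tested, 1 was called higher and 6 lower with TBX2, and 0 and 3 with TBX3. With TBX4 these counts were 1 and 2, and with TBX5 1 and 1, too few to read a direction. Over all genes, 17.0% were called higher and 15.6% lower with TBX2, and 8.47% and 6.40% with TBX3. The all-gene shares were 6.97% and 6.07% with TBX4, and 6.55% and 6.12% with TBX5. VCL, which encodes vinculin, fell from 287 ± 6.83 CPM (SD, n = 6) to 202 ± 3.89 CPM with TBX2 (SD, n = 3), by 0.51 on the log2 scale, and TPM1 fell with TBX2, TBX4 and TBX5 (-0.23, -0.29 and -0.37). TAGLN2 rose with TBX2 (0.18) and TBX4 (0.28), and TAGLN was not called.

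Of 10 tested genes described as EGR1 targets, 3 were called higher and 2 lower with TBX2, 3 and 0 with TBX3, 2 and 0 with TBX4, and 2 and 1 with TBX5. VEGFA, an angiogenic growth factor, rose from 13.6 ± 1.34 CPM (SD, n = 6) to 22.0 ± 0.711 CPM with TBX2 and 18.6 ± 2.64 CPM with TBX3 (SD, n = 3 each), by 0.70 and 0.46 on the log2 scale. F3, which encodes tissue factor, rose by 0.71 with TBX2 and 0.75 with TBX3, while CCND1 fell with TBX2 (-0.15). The corepressors NAB1 and NAB2, which bind EGR proteins, were not called, with log2 fold changes of -0.42 to 0.28. The partners of NR4A receptors RXRA and RXRB were not called either, at -0.19 to 0.23.

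**Figure D5:**
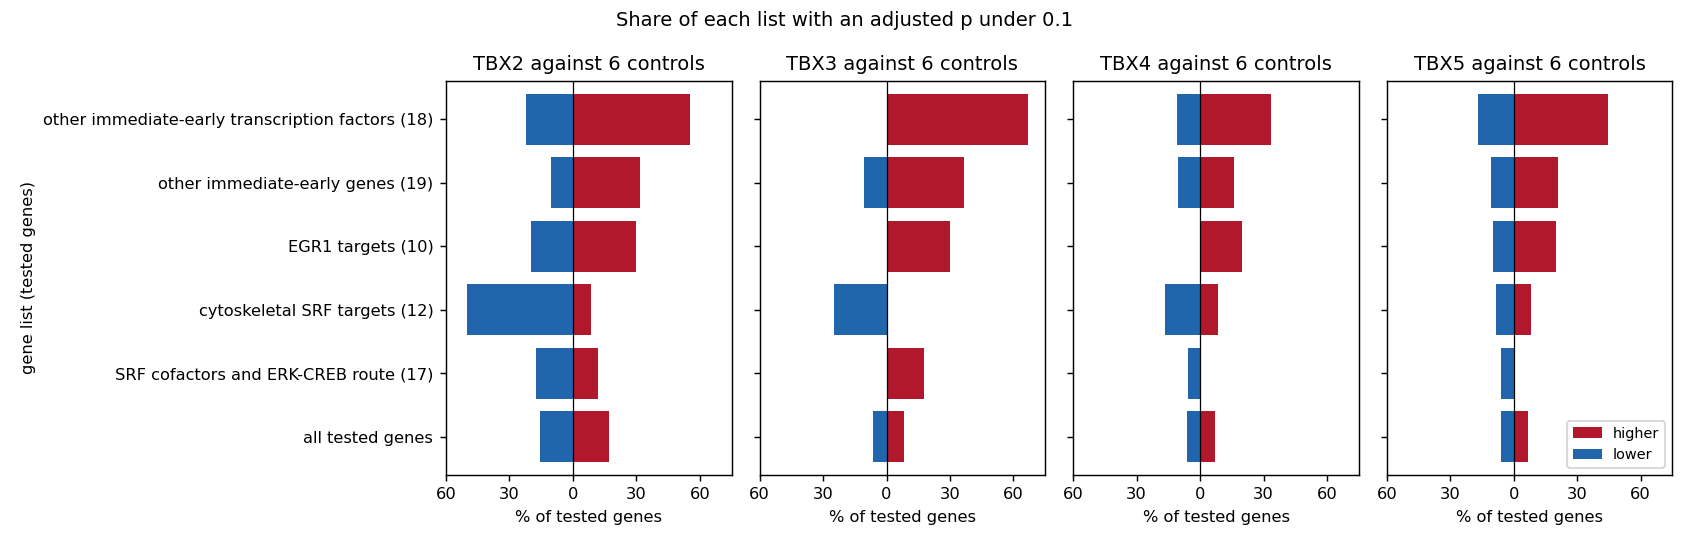
Percent of the tested genes of each list, and of all tested genes, with an adjusted p under 0.1 against the 6 controls, higher to the right and lower to the left of 0, in 1 panel per TBX. Of the other immediate-early transcription factors, 55.6% were higher with TBX2 and 66.7% with TBX3, and of the 12 cytoskeletal SRF targets, 6 were lower with TBX2.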

How the data were processed

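RNA-seq was performed on 18 libraries of NCI-H1299 cells, 3 in each of the groups Ctl, EV, TBX2, TBX3, TBX4 and TBX5, which were taken from the sample titles together with the replicate letters a, b and c. Per the study's methods and the submitters' processing notes, read pairs were aligned by the authors with STAR 2.3.0 (GRCh37), and featureCounts at default settings, which use no strand and drop reads that fall on more than 1 gene, gave counts for Ensembl genes. The deposited values are these read counts, without normalization. Symbols, exon lengths and overlapping genes came from GENCODE v44 lifted to GRCh37, which is not the annotation of the counting. Promoter sequences came from RefSeq and each was matched once in GRCh37.

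Genes for which 10 or more libraries held over 5 counts were tested with the quasi-likelihood test of edgeR 4.0.16 in R 4.3.3, with TMM scaling and Benjamini-Hochberg adjustment over 15576 genes, at a false-discovery rate of 0.1. Each TBX was compared with the 6 pooled controls in a separate fit, EV with Ctl in another, and pairs of TBX groups in 1 joint fit. Standard errors were obtained by dividing the size of the log2 fold change by the root of its F statistic, and 95% intervals are approximate. Correlations used the log2 of CPM after 0.5 CPM was added. The methods were tested on simulated data. Alternatives were DESeq2 1.42.0, its size factors, library totals, all genes unfiltered, a minimum of 10 counts in each library, a false-discovery rate of 0.05, the replicate letter as a block, either kind of control alone, joint or separate fits, each library left out, and the share of ENSG00000266658 as a covariate. The members and lists were chosen with earlier results of these data known. All 10 members, the 2 genes with the highest and the 2 with the lowest mean log2 fold change of each list, all genes of lists with 5 or fewer, and the 5 genes most like EGR1 were named. The azacitidine and tumour profiles and the qPCR were not analysed here, and 1 gene of the lists is not reported here by name.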

Additional observations from a re-analysis of the deposited data

Results flagged for a closer look

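Differences between TBX groups passed an adjusted p of 0.1 in the joint edgeR fit for 7 values on the log2 scale. They are made of the same TBX values that were in view when the list was made, so they are a description and no independent test. For NR4A1 these were -0.77 for TBX2 against TBX3 and 0.96 for TBX3 against TBX4. For IER2 they were -0.43 for TBX2 against TBX3, 0.59 for TBX3 against TBX4 and 0.60 for TBX3 against TBX5. For SRF they were 0.34 for TBX3 against TBX4 and 0.29 for TBX3 against TBX5. The TBX3 libraries were on the higher side in each and did not overlap with the other group under TMM scaling. In these pairs with TBX3, 20.9% to 26.1% of all genes did not overlap either, and 7.41% to 15.5% were called. With library totals, 0 of the 7 passed the threshold, and the SRF difference between TBX3 and TBX4 was -0.0075. Calls over all 15576 genes fell as well under library totals. They were 154 higher and 10 lower between TBX2 and TBX3, and 10 and 100 between TBX3 and TBX4. Between TBX3 and TBX5 they were 18 and 16. The groups of 3 libraries are too small for a test of single outlying libraries.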

How the results depend on the processing

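Pairing of libraries by replicate letter was not seen on average, as deviations from the group means had a mean correlation of -0.000917 within a letter. The mean between letters, 0.000477, is no separate comparison, because deviations cancel out within a group. These averages cannot show whether single groups were paired with each other. With the replicate block, the members called against the controls were 2 with TBX2, 6 with TBX3 and 3 each with TBX4 and TBX5, and 3 between TBX2 and TBX3, as without it. DESeq2 and a false-discovery rate of 0.05 gave 4 with TBX3, and EV controls alone gave 2, 4, 2 and 2. Scaling by library totals, which shifts the median log2 fold change of all genes by 0.25 with TBX4 and -0.31 with TBX5, left 2 members called with TBX3, 1 each (EGR1) between TBX2 and TBX3, TBX3 and TBX4, and TBX3 and TBX5, and gave 1 (EGR1) for EV against Ctl. Over all genes that scaling called 35 higher and 0 lower with TBX3, and 16 and 1 for EV against Ctl. It left 154 and 10 between TBX2 and TBX3, 10 and 100 between TBX3 and TBX4, and 18 and 16 between TBX3 and TBX5. Under library totals SRF differed by -0.0075 between TBX3 and TBX4. At least 10 counts in every library left 1 member (EGR1) with TBX2 and 1 with TBX4, as NR4A2 and NR4A3 were not tested. With no filter, EGR1 was the 1 member called for EV against Ctl, and between TBX3 and TBX5 the count was 5, with EGR2 and NR4A1 added. EGR2 was also called there with TBX4 (2.00) and TBX5 (2.90) against the controls. The covariate gave 1 for EV against Ctl, next to 26 higher and 17 lower over all genes, and leaving out each library gave 0 to 1. The cause was not tested, except that the stricter minimum tested fewer genes. Of the values of single members in the contrasts named here under an alternative, 790 kept their call or moved by less than the spread of replicates. This class also holds calls gained or lost by a small move, as seen above with 1 library left out. Of the other values, 23 moved further, 8 lost and 5 gained a call, and 1 reversed. These 8 and 5 are therefore not all the calls that changed. Depth limits EGR2 and EGR3, which had 11 counts or fewer per library.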
